A study of Mus musculus with 18 samples.

Results

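Pcdh7, Emp2, Ptchd1, Flrt2, Slco4a1 and Slc5a3 encode proteins of the plasma membrane, and were grouped because they were among the largest rises with AS2 plasma. They are 6 of the 24705 named rows of an expression array of mouse bone marrow-derived macrophages, with 1 row per gene. In the order of differences between AS2 and ApoE plasma they ranked 1 (Pcdh7), 2 (Emp2), 5 (Slco4a1), 8 (Ptchd1), 10 (Flrt2) and 27 (Slc5a3). The choice set no threshold: Ccr2, which came next after Flrt2, had a log2 difference of 1.99 against 2.02 for Flrt2. Larger rises were also left out: Itgax (2.87) and Dcstamp (2.43), at ranks 3 and 4, were not among the 6 genes. The genes were thus chosen by measured rises with AS2 plasma, and the group those rises were taken against was not stated. Their values on the AS2 and ApoE arrays are given as a description. The genes were tested between the AS1 and WT arrays, which the AS2 minus ApoE difference does not use. The estimate of spread in that test draws on all 18 arrays. If WT or AS1 arrays entered the choice, the test is not independent of it.

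The macrophages were grown from femoral marrow in medium with fetal calf serum and M-CSF at 30 ng/mL. On day 4 the medium was exchanged for medium with 10% mouse plasma, and RNA was taken after 48 hours, on day 6. Every plasma donor had eaten a Western diet for 8 weeks. WT plasma (4 arrays) came from wild-type C57BL/6J mice and ApoE plasma (5 arrays) from ApoE-KO C57BL/6J mice, which lack the lipid carrier apolipoprotein E. AS1 plasma (3 arrays) came from ApoE-Stab1-KO and AS2 plasma (6 arrays) from ApoE-Stab2-KO C57BL/6J mice, so these donors lacked apolipoprotein E and also stabilin-1 or stabilin-2, scavenger receptors that clear ligands from blood. The knockouts are those of the plasma donors; no genotype is given for the marrow. Whether the arrays of a group stand for separate cultures or separate donors is not in the labels. The p-values therefore reflect array-to-array spread alone, and that spread may be technical.

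The genes differ in what their proteins do. Protocadherins such as Pcdh7 and leucine-rich repeat proteins such as Flrt2 bind partners outside the cell. Emp2 belongs to the small multi-span proteins related to Pmp22 and affects integrin traffic. Ptchd1 carries a domain like that of the Hedgehog receptor Patched and is best known from neurons. Slco4a1 is an organic anion transporter that carries thyroid hormone, and Slc5a3 brings myo-inositol, an osmolyte, into the cell together with sodium.

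Macrophage identity was checked on 8 measured markers, whose mean per array lay between 11.2 and 11.6 on the log2 scale, where the median row of an array was 4.37. Mean levels of 12 stromal markers lay between 4.14 and 4.44 in all arrays, with the AS1 arrays (4.40 to 4.44) above the WT arrays (4.21 to 4.28), and those of 6 epithelial markers between 4.21 and 4.37. Arrays of a group correlated with their own group at a mean r of 0.991 (ApoE replicate 2) to 0.997 across rows. ApoE replicate 1 held 24162 distinct values against 7087 in every other array.

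With AS2 plasma all 6 genes were higher than with any other plasma. Every AS2 array lay above every WT, ApoE and AS1 array for each of them. Of all rows, 5.44% had every AS2 array above every ApoE array, 12.3% had every AS2 array above every AS1 array and 8.41% had every AS2 array above every WT array. The genes differed in the order of the other groups: Pcdh7, Emp2 and Ptchd1 were at their lowest with ApoE and AS1 plasma and intermediate with WT plasma, Slc5a3 was intermediate with ApoE plasma, Slco4a1 with AS1 plasma, and Flrt2 was lowest with AS1 plasma. In a bulk RNA sample, fewer cells that express a gene and less of its RNA per cell cannot be told apart.

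**Figure D1:**
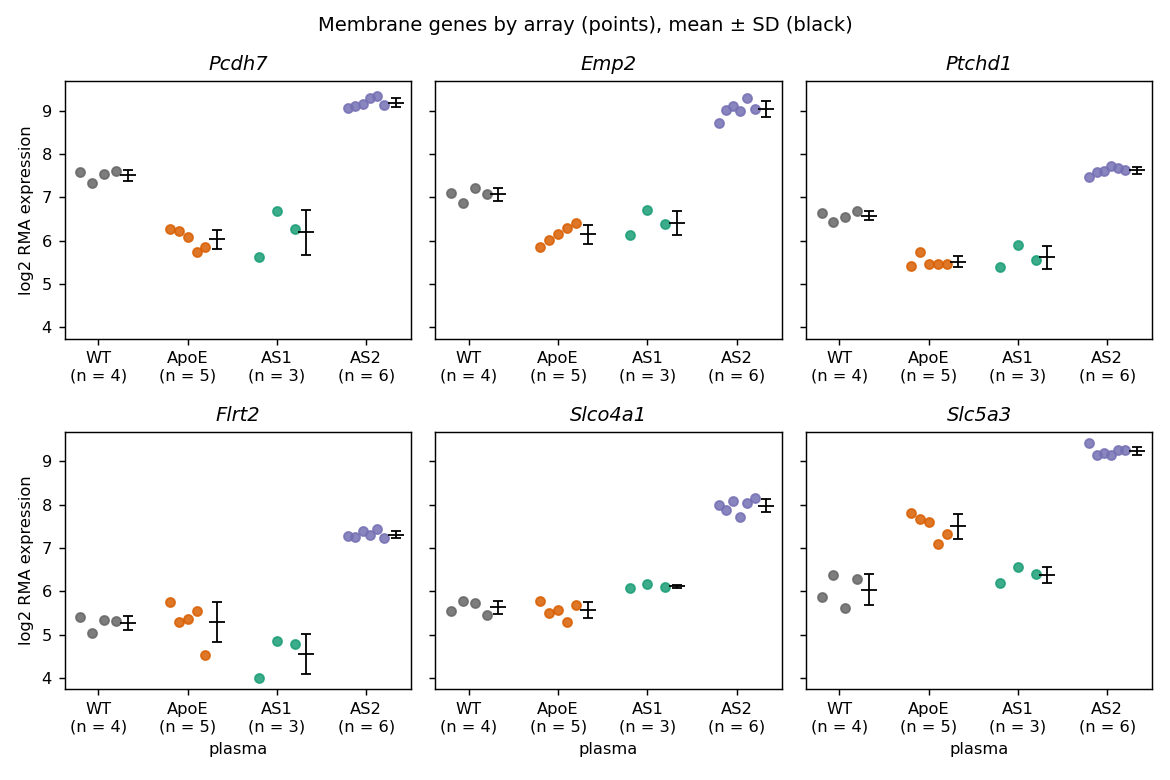
Log2 expression (vertical axis) of the 6 membrane genes on every array, by plasma group (horizontal axis); each point is an array and the black marks are the mean ± SD. The AS2 arrays lie above all others in each panel, whereas the order of WT, ApoE and AS1 differs from gene to gene.

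Pcdh7, the protocadherin, was at 7.58, 7.33, 7.54 and 7.60 on the WT arrays and at 6.26, 6.22, 6.08, 5.75 and 5.85 on the ApoE arrays, in log2 values by replicate number. It was at 5.63, 6.68 and 6.26 with AS1 plasma, and between 9.05 and 9.34 with a median of 9.15 on the AS2 arrays. ApoE and AS1 arrays overlapped, at means of 6.03 ± 0.23 (SD, n = 5) and 6.19 ± 0.53 (SD, n = 3), and all of them lay below the WT arrays at 7.51 ± 0.13 (SD, n = 4). The AS2 mean of 9.18 ± 0.11 (SD, n = 6) was 3.15 ± 0.14 (SE) log2 units above ApoE and 1.67 ± 0.15 above WT, or 3.19-fold.

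Emp2 followed the same order. Its WT arrays were at 7.11, 6.86, 7.22 and 7.09, its ApoE arrays at 5.87, 6.01, 6.16, 6.30 and 6.42, and its AS1 arrays at 6.13, 6.71 and 6.39. The AS2 arrays ran from 8.72 to 9.29 with a median of 9.04. ApoE and AS1 again overlapped, and WT lay between these and AS2. AS2 exceeded ApoE by 2.88 ± 0.12 (SE) log2 units and WT by 1.96 ± 0.12, or 3.89-fold. The 250 bases before the Emp2 start (RefSeq, GRCm38.p6, chr16:10313969-10314218, minus strand) are shown because they hold both GGAAA, the core of NFAT sites, and GC boxes (GGGCGG); capitals mark these motifs on either strand.
Emp2: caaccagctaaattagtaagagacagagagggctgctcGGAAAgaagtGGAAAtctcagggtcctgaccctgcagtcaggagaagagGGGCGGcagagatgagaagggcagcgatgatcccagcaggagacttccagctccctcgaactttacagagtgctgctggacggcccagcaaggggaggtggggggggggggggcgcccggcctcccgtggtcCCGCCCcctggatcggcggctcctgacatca

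Ptchd1, the Patched-related gene on the X chromosome, was at 6.65, 6.44, 6.55 and 6.68 with WT plasma. With ApoE plasma it was at 5.43, 5.74, 5.46, 5.47 and 5.47, where replicate 2 stood above the other ApoE arrays. The AS1 arrays were at 5.40, 5.90 and 5.55 and the AS2 arrays between 7.47 and 7.73 with a median of 7.63. As for Pcdh7 and Emp2, ApoE and AS1 overlapped and lay below all WT arrays. AS2 was 2.11 ± 0.081 (SE) log2 units above ApoE and 1.04 ± 0.086 above WT, the smallest of the 6 differences from WT.

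Flrt2, a ligand of Unc5 and latrophilin receptors, was at 5.40, 5.04, 5.34 and 5.33 with WT and at 5.75, 5.29, 5.36, 5.54 and 4.53 with ApoE plasma. These groups overlapped, with a difference of 0.02 ± 0.20 (SE) log2 units. The AS1 arrays were at 4.01, 4.86 and 4.79, within or below the range of ApoE and below all WT arrays. On the AS2 arrays Flrt2 lay between 7.23 and 7.43 with a median of 7.28, which was 2.02 ± 0.18 log2 units above ApoE and 2.03 ± 0.19 above WT.

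Slco4a1, the organic anion transporter, was at 5.55, 5.77, 5.73 and 5.46 with WT and at 5.78, 5.50, 5.58, 5.30 and 5.69 with ApoE plasma, which overlapped. The AS1 arrays, at 6.07, 6.16 and 6.11, lay above all of these. The AS2 arrays ran from 7.72 to 8.15 with a median of 8.01, at 5.30-fold the ApoE and 3.64-fold the AS1 level. RefSeq lists windows for 2 starts of Slco4a1, 4733 bases apart. The 231 bases of the upstream window that lie before the gene (GRCm38.p6, chr2:180455995-180456225, plus strand) hold 3 GC boxes and 1 GGAAA on the reverse strand, in capitals; the downstream window holds neither.
Slco4a1: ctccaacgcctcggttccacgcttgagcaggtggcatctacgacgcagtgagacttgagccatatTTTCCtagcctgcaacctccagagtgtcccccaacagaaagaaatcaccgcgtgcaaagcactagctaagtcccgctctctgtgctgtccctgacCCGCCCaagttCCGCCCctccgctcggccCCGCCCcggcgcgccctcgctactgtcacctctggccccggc

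Slc5a3, the sodium and myo-inositol cotransporter, differed from the others in its order. It was lowest with WT plasma, at 5.86, 6.38, 5.62 and 6.29, and the AS1 arrays, at 6.18, 6.56 and 6.40, overlapped with these. The ApoE arrays were higher, at 7.82, 7.67, 7.59, 7.09 and 7.33. The AS2 arrays were at 9.14 to 9.41 with a median of 9.23. The ApoE mean was thus 1.46 ± 0.15 (SE) log2 units above WT, and the AS2 mean a further 1.74 ± 0.14 above ApoE, which put AS2 9.20-fold above WT.

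The Slc5a3 start lies on the same strand 14 bases before that of Mrps6, a mitochondrial ribosomal protein gene, so both share a promoter region. The 250 bases before the Slc5a3 start (RefSeq, GRCm38.p6, chr16:92058072-92058321, plus strand) are shown for this reason; capitals mark 4 GC boxes, of which the leftmost pair shares a base. No GGAAA was found in this window.
Slc5a3: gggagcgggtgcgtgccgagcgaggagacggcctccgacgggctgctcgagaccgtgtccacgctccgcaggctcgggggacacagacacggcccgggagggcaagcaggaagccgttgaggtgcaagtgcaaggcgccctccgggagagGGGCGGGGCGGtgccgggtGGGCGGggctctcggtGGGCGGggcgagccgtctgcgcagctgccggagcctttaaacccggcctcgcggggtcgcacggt
Mrps6 had the same order of groups in smaller steps: 7.85 ± 0.28 (SD, n = 4) with WT, 7.85 ± 0.20 (n = 3) with AS1, 8.77 ± 0.091 (n = 5) with ApoE and 9.76 ± 0.077 (n = 6) with AS2 plasma. It rose by 0.99 ± 0.093 (SE) log2 units from ApoE to AS2 (limma adjusted p = 5.1e-07). From WT to AS1 its difference was 0.003 ± 0.12 (limma adjusted p = 0.994). Probe positions were not used here, so whether the Slc5a3 and Mrps6 rows read shared transcript was not tested.

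**Figure D2:**
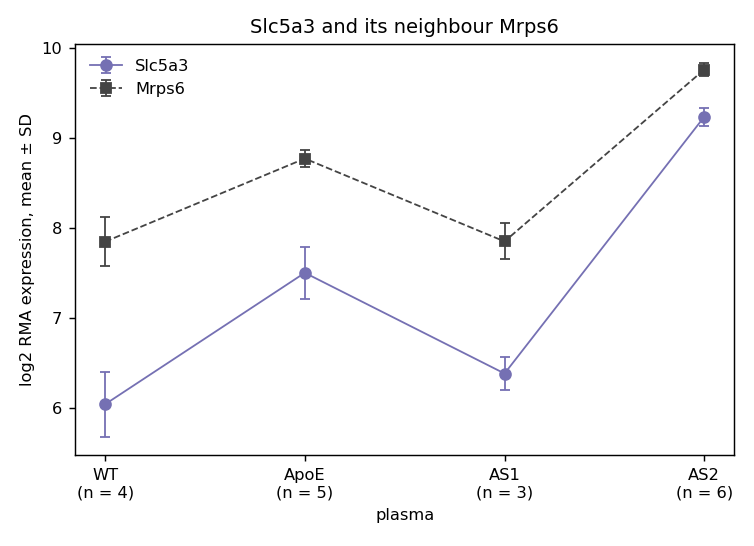
Mean log2 expression ± SD (vertical axis) of Slc5a3 and of Mrps6, whose start lies 14 bases further on, by plasma group (horizontal axis, with the number of arrays). Both genes are lowest with WT and AS1, higher with ApoE and highest with AS2 plasma.

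AS1 was compared with WT plasma on arrays that do not enter the AS2 minus ApoE difference, although earlier results of all 4 groups were known when the genes were chosen. With AS1 plasma 3 of the 6 genes fell, 1 rose and 2 did not pass (limma, Benjamini-Hochberg over 24705 rows, threshold 0.05, two-sided). Of all rows, 4.64% fell and 4.84% rose in this comparison. The median difference of the 6 genes was -0.69 log2 units and that of all rows -0.004. The p-values of this comparison use a spread estimated over all 18 arrays, AS2 and ApoE included. With the AS1 and WT arrays alone, limma adjusted p was 0.0096 for Pcdh7, 0.00295 for Ptchd1, 0.0265 for Emp2 and 0.0113 for Slco4a1. Flrt2 (limma adjusted p = 0.0758) and Slc5a3 (0.389) did not pass there either.

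Pcdh7 fell by 1.32 ± 0.18 (SE) log2 units from WT to AS1 (limma adjusted p = 6.19e-05), a 2.50-fold difference, and Ptchd1 fell by 0.96 ± 0.10 (limma adjusted p = 5.39e-06). All 3 AS1 arrays lay below all 4 WT arrays for both, as in 9.38% of all rows. Emp2 fell by 0.66 ± 0.15 (limma adjusted p = 0.00685); without AS1 replicate 1 the difference was -0.52 and no longer passed (limma adjusted p = 0.0556). Flrt2, at 4.55 ± 0.47 (SD, n = 3) against 5.28 ± 0.16 (SD, n = 4), lay just beyond the threshold (limma adjusted p = 0.0501). It passed in 6 of 15 alternative settings, with limma adjusted p from 0.0208 to 0.298.

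Of the transporters, Slco4a1 rose by 0.48 ± 0.11 (SE) log2 units (limma adjusted p = 0.00802), from 5.63 ± 0.15 (SD, n = 4) to 6.11 ± 0.045 (SD, n = 3). Slc5a3 was at 6.38 ± 0.19 against 6.04 ± 0.36, a difference of 0.34 ± 0.17 (SE) that did not pass (limma adjusted p = 0.284) and was 0.20 without WT replicate 3. AS1 replicate 1 was the lowest and replicate 2 the highest AS1 array for each of the 6 genes. Over all rows these arrays were the lowest in 31.1% and the highest in 33.1%.

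Markers of other blood cells moved in the same arrays. Of 12 neutrophil markers 11 rose with AS1 against WT plasma, with mean levels per array from 7.43 to 7.72 in WT and from 9.22 to 9.48 in AS1. Of 5 markers of megakaryocytes and platelets, 4 rose and 1 fell, from 6.76 to 6.89 in WT and from 8.01 to 8.18 in AS1. Of 8 macrophage markers 1 fell and 7 did not pass (11.57 to 11.58 in WT, 11.48 to 11.60 in AS1). Markers at lower levels also rose, namely 4 of 7 of mast cells and basophils (4.07 to 4.24 in WT, 4.71 to 5.05 in AS1), 4 of 8 of dendritic cells (4.41 to 4.55 and 4.74 to 4.88), 3 of 5 of B cells (4.19 to 4.43 and 4.54 to 4.90) and 4 of 12 stromal markers. Of 8 osteoclast markers 2 rose (5.61 to 5.72 and 5.96 to 6.13), as did 1 each of 9 endothelial, 7 T and NK cell and 4 erythroid markers. Of all rows, 4.84% rose and 4.64% fell from WT to AS1. Of 6 epithelial markers 0 passed in limma (0 by unadjusted p). Their part in the differences of the membrane genes was not tested.

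The remaining comparisons without AS2 arrays share the ApoE arrays, which may have taken part in the choice, and are given as values. Pcdh7, Emp2 and Ptchd1 were below their WT level with ApoE plasma, by -1.48 ± 0.15, -0.92 ± 0.13 and -1.07 ± 0.089 (SE) log2 units. Their AS1 minus ApoE differences were 0.16 ± 0.17, 0.26 ± 0.14 and 0.10 ± 0.097. Slc5a3 was lower with AS1 than with ApoE plasma (-1.12 ± 0.17), as was Flrt2 (-0.74 ± 0.21), whereas Slco4a1 was higher (0.54 ± 0.10). Without ApoE replicate 1, which differs in its number of distinct values, the ApoE minus WT differences of Pcdh7, Emp2, Ptchd1 and Slc5a3 were -1.54, -0.85, -1.04 and 1.38. Without ApoE replicates 2 and 5 they were -1.48, -0.96, -1.13 and 1.46. Flrt2 changed sign in this comparison: its ApoE minus WT difference was -0.10 without replicate 1 and 0.27 without replicates 2 and 5.

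**Figure D3:**
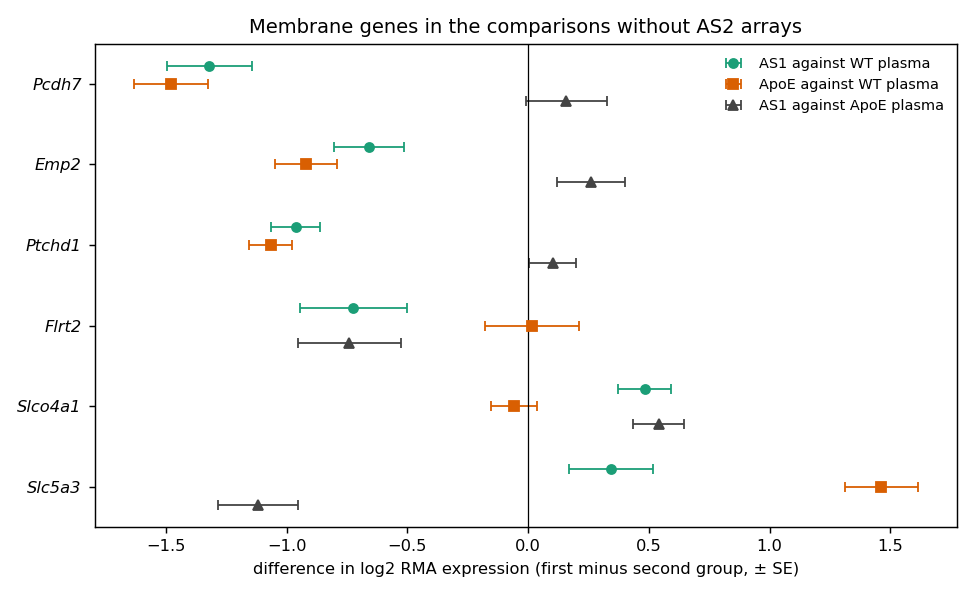
Differences in log2 expression ± SE (horizontal axis, the named group minus the group it is set against) of the 6 membrane genes (vertical axis) in the 3 comparisons that hold no AS2 array. Pcdh7, Emp2 and Ptchd1 lie left of 0 against WT for both ApoE and AS1, whereas Slc5a3 lies right of 0 for ApoE against WT and Slco4a1 for AS1 against WT.

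Relatives of these genes were read in the same fit. Of 45 other measured rows of their families, 0 rose and 1 fell from ApoE to AS2 plasma in limma, where 7.59% and 8.02% of all rows rose and fell; 4 of the 45 had an unadjusted p under 0.05. Most of these rows had ApoE means under 4.37, the level of the median row of an array. The highest were Slco2b1, Pmp22, Emp1 and Emp3, from 9.04 (Slco2b1) to 11.25 (Emp3). Rows at low levels may hold no signal, so the counts cannot tell whether the rises were confined to the membrane genes. Among 11 other protocadherins with a number directly after Pcdh in their names (ApoE means 3.61 to 4.11), 0 passed (1 by unadjusted p). The clustered genes Pcdhgc3, Pcdhgc4 and Pcdhgc5 were not counted among these, and did not pass either. Among 12 other Slc5a genes 0 passed (0 by unadjusted p), and among 14 other Slco genes 0 passed (1 by unadjusted p). Neither Flrt1 and Flrt3 nor Ptch1, Ptchd3 and Ptchd4 passed, by adjusted or unadjusted p. Of the Emp2 relatives, Pmp22, a myelin and growth arrest gene, fell by 0.34 ± 0.097 (SE) log2 units (limma adjusted p = 0.0194), and Emp1 was at 10.84 against 11.00.

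From WT to AS1 plasma, 2 of the 45 relatives rose and 0 fell in limma (7 had an unadjusted p under 0.05), near the 4.84% of all rows that rose. They were the organic anion transporter genes Slco4c1 and Slco2b1: Slco4c1 rose from 4.10 to 5.18 (limma adjusted p = 1.3e-05) and Slco2b1 from 9.23 to 9.97 (limma adjusted p = 0.000278). Neither passed from ApoE to AS2, with differences of -0.29 ± 0.098 and 0.16 ± 0.09 (SE) log2 units.

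Partners of the proteins were read from lists chosen with earlier results known. Of 17 receptors and relatives of Flrt proteins, 1 rose and 0 fell from ApoE to AS2: Fgfr1, a growth factor receptor gene, was at 6.13 ± 0.34 (SD, n = 6) against 5.20 ± 0.17 (SD, n = 5) (limma adjusted p = 5.97e-05). Adgrl2, a latrophilin, fell from WT to AS1 by 0.46 ± 0.066 (SE) log2 units (limma adjusted p = 0.000127). Of 16 measured genes of the Patched and sterol-sensing list, Npc1, a lysosomal cholesterol transporter, fell by 0.56 ± 0.047 from ApoE to AS2 and the other 15 did not pass. Of 19 protocadherins and Pcdh7 partners 0 passed from ApoE to AS2 in limma (1 had an unadjusted p under 0.05), and 1, the phosphatase gene Ppp1ca, fell from WT to AS1 (limma adjusted p = 0.0428).

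The list around Emp2, with claudins and integrin partners, had 2 of 16 higher and 3 lower from ApoE to AS2, where 7.59% of all rows rose and 8.02% fell. Itgav, the integrin alpha v subunit, rose by 0.52 ± 0.073 (SE) log2 units and Cav1, a caveolin, by 0.98 ± 0.18. Itgb3, a beta subunit that pairs with it, fell by 1.71 ± 0.16 and Cldn1 by 0.32 ± 0.069. From WT to AS1 these genes went the other way: Cav1 fell by 1.69 ± 0.22 and Itgav by 0.35 ± 0.092, and Itgb3 rose by 2.51 ± 0.20. Among carriers of thyroid hormone beside Slco4a1, Slc16a10 rose by 0.48 ± 0.044 from ApoE to AS2 and Slc7a5, also an amino acid transporter, fell by 1.83 ± 0.17. The whole list also holds other Slco genes, deiodinases and thyroid hormone receptors, and of its 25 measured genes 1 rose and 3 fell. The receptor gene Thrb was among those that fell, at -0.18 ± 0.057.

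Genes of the osmolyte and inositol list moved both ways with AS2 against ApoE plasma. Of 19 measured genes beside Slc5a3, 4 rose, 5 fell and 10 did not pass, where 7.59% of all rows rose and 8.02% fell. Their median was -0.04 log2 units against -0.002 for all rows. The betaine transporter gene Slc6a12 rose by 1.39 ± 0.14 (SE) log2 units (limma adjusted p = 9.15e-07), to 6.55 ± 0.25 (SD, n = 6) from 5.17 ± 0.35 (SD, n = 5). The others that rose were Mrps6, the neighbour of Slc5a3, which does not handle osmolytes, Impa1 (0.22) and the taurine transporter gene Slc6a6 (0.14). Slc12a2, a cotransporter of sodium, potassium and chloride, and Lrrc8d, a subunit of volume-regulated anion channels, fell by 0.81 ± 0.12 and 0.77 ± 0.055. Osgin1, a growth inhibitor gene of the list that does not handle osmolytes either, fell by 0.56 ± 0.086. Nfat5, the transcription factor that raises Slc5a3 under hypertonic stress, was at 8.80 against 8.72 (limma adjusted p = 0.307). Nfat5, Impa1 and Slc6a6 were picked for mention after their values were seen. From WT to AS1 plasma, 2 of the 19 rose and 0 fell in limma, beside 4.84% and 4.64% of all rows. The amino acid transporter gene Slc38a2 was among those that rose, at 0.51 ± 0.11. From ApoE to AS2 plasma it was among those that fell, at -0.29 ± 0.088 (limma adjusted p = 0.0317).

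Pcdh7 is also known from osteoclasts, the bone-resorbing cells that form by fusion of macrophage precursors. Of 30 osteoclast and fusion genes 12 rose, 4 fell and 14 did not pass from ApoE to AS2, beside 7.59% and 8.02% of all rows. Their median was 0.08 log2 units against -0.002 for all rows. This list was chosen with earlier results known, and its genes Dcstamp and Acp5 ranked 4 and 6 among all rises in this comparison. The count is thus a description and no test of the list. Dcstamp, needed for fusion, rose by 2.43 ± 0.17 (SE), Acp5 by 2.33 ± 0.10, the proton pump subunit Atp6v0d2 by 1.28 ± 0.057, the RANK gene Tnfrsf11a by 1.19 ± 0.061 and Cd9 by 0.92 ± 0.065. Mitf, a transcription factor, rose from 7.91 to 8.91. These 6 genes were named for the smallest adjusted p in the list, from ApoE to AS2 or from WT to AS1. All 6 rose here, and the 4 genes that fell were not among them. Of the defining markers, Calcr, Oscar, Ocstamp and Mmp9 did not pass. Mean levels of the 8 osteoclast markers per array ran from 5.71 to 6.00 with ApoE and from 6.41 to 6.81 with AS2 plasma, and 4 of the 8 rose. The part of such cells in the levels of the membrane genes was not tested.

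**Figure D4:**
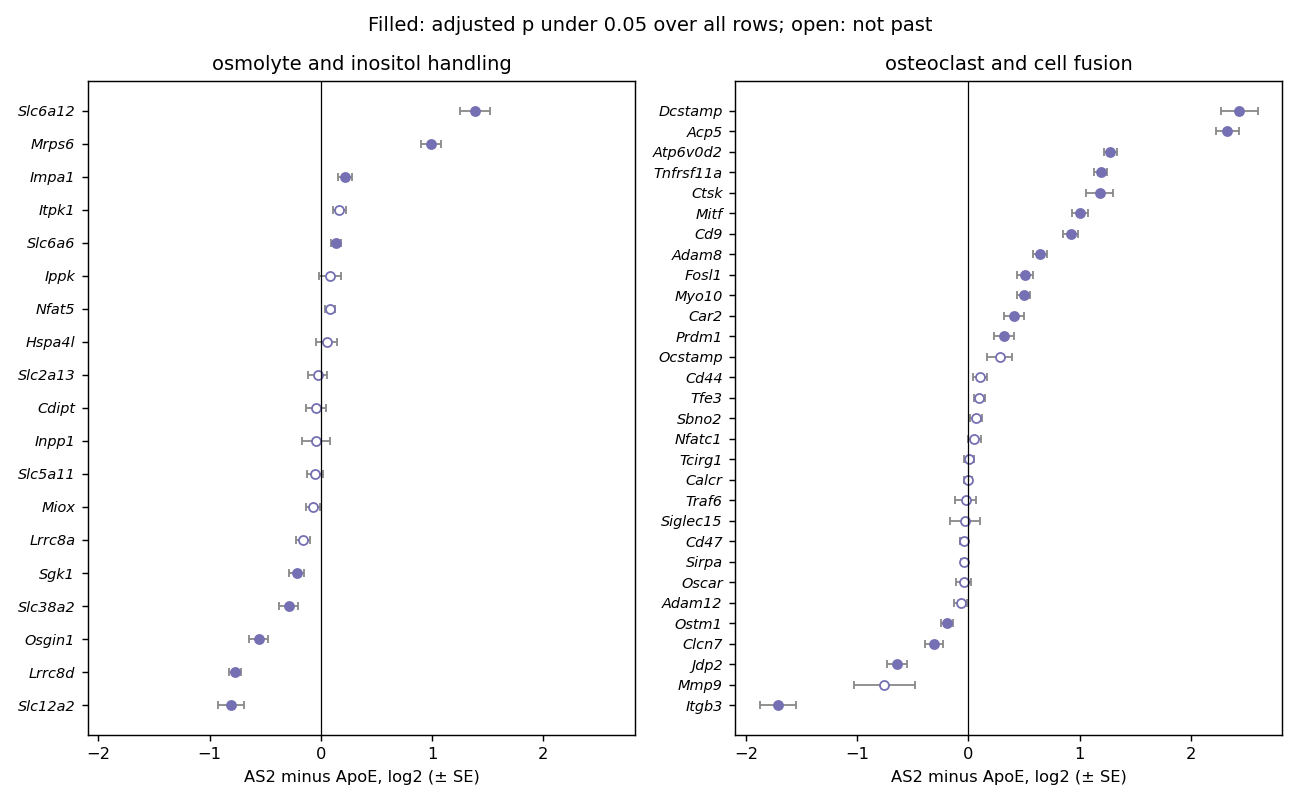
AS2 minus ApoE differences in log2 expression ± SE (horizontal axis) for 19 genes of the osmolyte and inositol list beside Slc5a3 and for 30 osteoclast and fusion genes (vertical axis). Filled points passed the threshold (limma adjusted over all rows) and open points did not; Slc6a12 leads the left panel and Dcstamp and Acp5 the right, while 5 and 4 genes fell.

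In WT and AS1 arrays, part of these osteoclast genes had the order seen for Pcdh7. Tnfrsf11a fell from WT to AS1 by 1.07 ± 0.077 (SE) log2 units (limma adjusted p = 6.48e-08) and Mitf by 0.33 ± 0.086 (limma adjusted p = 0.0218). Atp6v0d2 rose by 0.89 ± 0.072 (limma adjusted p = 2.63e-07), and Dcstamp (-0.21 ± 0.21) and Acp5 (0.09 ± 0.13) did not pass. Of the 30 genes 5 rose and 4 fell in this comparison, beside 4.84% and 4.64% of all rows. Other cell markers also moved between the ApoE and AS2 arrays: 5 of 5 megakaryocyte and platelet markers fell (7.06 to 7.92 with ApoE, 6.05 to 6.45 with AS2 plasma) and 5 of 12 neutrophil markers fell (7.29 to 8.43 and 6.87 to 7.53). Of 8 macrophage markers 3 rose and 3 fell (11.20 to 11.35 with ApoE, 11.28 to 11.34 with AS2 plasma). Of 9 endothelial markers 3 fell (5.13 to 5.20 and 4.61 to 4.71), and of 8 dendritic cell markers 1 rose and 3 fell (4.49 to 4.73 and 4.68 to 4.88). Of the other lists, 2 of 12 stromal markers and 1 each of 7 mast cell and basophil, 5 B cell, 7 T and NK cell and 4 erythroid markers fell. Of all rows, 7.59% rose and 8.02% fell from ApoE to AS2, so 1 marker of a short list does not show a shift of that cell type. Of 6 epithelial markers 0 passed in limma (1 by unadjusted p). The part of these markers in the levels of the membrane genes was not tested.

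The rows most like each gene were ranked by Pearson r over the 18 arrays. These points share the differences between the plasma groups, so r describes the pattern and was not tested. Slc44a1, a choline transporter gene, was most like both Pcdh7 (r = 0.988) and Ptchd1 (r = 0.992), with means of 9.48 for WT, 8.88 for ApoE and 10.13 for AS2. Myo1e, a class I myosin gene, was among the 3 most like Pcdh7, Emp2 and Ptchd1 (r = 0.984, 0.979 and 0.978). Calcrl, a receptor of the calcitonin family, was among the 3 for Pcdh7 (0.984) and Emp2 (0.981), the kinase-related gene Peak1 led for Emp2 (0.986), and S100a6 completed the 3 for Ptchd1 (0.975).

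The other genes had different nearest rows. Flrt2 was most like the cyclin gene Ccnd1 (r = 0.969), the protease gene Plau (0.967) and the caveolin gene Cav2 (0.965). Slco4a1 was most like Olfm1 (0.981), Acp5 (0.969) and Ptprn (0.966). Olfm1 shared its step with AS1 plasma, at 6.86 in WT, 6.94 in ApoE, 7.41 in AS1 and 8.71 in AS2. Slc5a3 was most like Apbb2 (0.977), the vitamin C transporter gene Slc23a2 (0.974) and Qpct (0.970), which was at 4.54, 5.73, 4.65 and 7.36 in the same order. The average of the 6 genes was most like S100a4 (0.987), Ptprn (0.983), Calcrl (0.983), Layn (0.981) and Myo1e (0.979).

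Promoter windows of 300 bases were found in RefSeq for all 6 genes (7 windows) and searched on both strands. GC boxes (GGGCGG) were present for 3 of 6 genes, namely Emp2, Slco4a1 and Slc5a3, and in 35.7% of all 32851 windows. GGAAA was present for Pcdh7, Emp2, Flrt2 and Slco4a1 (61.3% of all windows), and the NF-kB pattern (GGG and CC around 5 free bases) for every gene but Pcdh7 (50.8%); this pattern can overlap GC boxes. The E-box CACGTG was found for Flrt2 alone (7.15% of all windows). TGANTCA (AP-1), AGGAAGT (PU.1), TGACGTCA (CRE) and TATAAA were found for none of the 6, against 7.81%, 9.35%, 1.79% and 13.6% of all windows. The windows of the 6 genes thus held no motif in common among those searched.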

How the data were processed

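Macrophage RNA was measured on 18 Affymetrix arrays. The deposited values are log2 expression values. The authors made them with RMA (background correction, equalised array distributions and probe summary), according to the submitters' processing notes. For the version of RMA and the definition of the probe sets, the sources used here give nothing. The table held 25428 rows, of which 24705 had 1 gene symbol in the platform annotation and 723 were not listed. RMA had made array distributions equal, so a change in total RNA cannot be seen, and the number of arrays limits the precision.

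limma 3.58.1 in R 4.3.3 fitted 4 group means to the named rows with lmFit and eBayes, leaving 14 residual degrees of freedom, with two-sided tests and Benjamini-Hochberg adjustment over rows. The 6 genes, the gene lists and the rules were chosen with earlier results of these data known. From each list, up to 6 genes of smallest adjusted p were named, plus relatives by name past the threshold. For each gene the 3 nearest rows by Pearson r were named, passing over predicted and small RNA genes and the other genes of the 6. List genes without a row were not analysed here. In a simulated AS1 against WT comparison of 24705 rows, calls were made for 83 of 100 rows shifted by 0.5 log2 units and for 50 of 50 shifted by 1, and 4.19% of calls were unshifted rows. Promoter sequences and starts are from RefSeq, GRCm38.p6; only bases outside the gene's own annotated span are printed. Alternatives covered rows tested, a low-value filter, normalization, centring, variance model, array weights, 2 groups alone, a replicate block and each array left out.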

Additional observations from a re-analysis of the deposited data

Results flagged for a closer look

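Ptchd1 on ApoE replicate 2, at 5.74, stood above the other 4 ApoE arrays, which lay between 5.43 and 5.47. The gap was 0.869 of the whole range of the group, beyond the critical value of 0.71 for 5 samples. Of 18 groups of values so examined this was the 1 found, and chance alone passes the critical value in about 1 in 20 groups.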

How the results depend on the processing

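From WT to AS1 plasma, Pcdh7, Ptchd1, Slco4a1 and Slc5a3 kept their direction and their side of the threshold in all 15 alternatives, and Emp2 in 14. With 1 array left out at a time, the Emp2 difference ran from -0.81 to -0.52 and lost its call without AS1 replicate 1. Flrt2 ran from -0.88 to -0.45 and gained a call without AS1 replicate 2 or WT replicate 2. Slc5a3 ran from 0.20 (without WT replicate 3) to 0.46. Flrt2 also passed at -0.72 with all rows of the table, with rows of low mean left out and with trended robust variance, and at -0.83 with array weights. The number of rows past the threshold was 2343, and 1605 to 2794 in the alternatives. From ApoE to AS2 plasma, 3475 to 4197 rows passed in the alternatives against 3857. Leaving out ApoE replicates 2 and 5 together was added after seeing the data, and 3513 rows then passed.

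No pairing of arrays by replicate number was seen. Deviations of same-numbered AS1 and WT arrays correlated at -0.21 to -0.03, and those of AS2 and ApoE arrays at -0.11 to 0.12. Of 3 AS1 arrays, 0 were closest to the WT array of their own number. So few same-numbered arrays cannot settle whether the numbers pair them. With the replicate block 1891 rows passed from WT to AS1 and 3475 from ApoE to AS2, and no gene of the 6 changed its call from WT to AS1. With 3 AS1 arrays, small differences such as that of Slc5a3 may go unseen; arrays have no read depth.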
